A study of Homo sapiens with 36 samples.

Results

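DEAD box (DDX) and DEAH box (DHX) helicases are a family of human RNA-remodelling enzymes, and the binding of 9 proteins to the transcripts of these helicase genes was described from eCLIP in HEK293T cells, a human embryonic kidney line. eCLIP crosslinks proteins to RNA, recovers 1 protein with its bound RNA fragments (the immunoprecipitate, IP) and compares the sequenced fragments with those of an input library made without that recovery. The members were all listed windows whose gene symbol was DDX or DHX followed by a number and at most 1 letter, in genes labelled protein-coding, with DHX8, DHX15 and DHX38 left out by the rule. They came to 4066 of 788098 windows, or 0.516%, in 41 genes (29 DDX and 12 DHX) of 10122 protein-coding genes with a window in any list. A further 267 windows carried a DDX or DHX symbol joined to another gene's symbol and were not members.

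The 9 proteins were CPSF5, CPSF6, EIF4B, GRB2, LGALS3, MBNL2, RBM10, RBM22 and RNPS1. Each had 2 IP libraries and 2 input libraries, 36 in all, from cells that had no further treatment. Complexes were recovered with antibodies to the protein itself or to a V5 tag, and which antibody served which protein is not given in the labels. All groups share the 1 cell line, and nothing says that replicates came from separate cultures, so the spread between replicates may be technical. The windows, at most 100 nt long, are stretches that the authors called enriched in IP over input in both replicates. Library depth is unknown, since the tables used here hold reads of listed windows only, and the level of each helicase RNA in these cells was not measured here. A gene with more RNA can give more listed windows, and the part of RNA level in the counts below was not tested.

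Helicases of this family share a core of paired RecA-like domains that binds RNA and ATP. DEAD box members pry short duplexes apart locally, while many DEAH box members move along a strand. They serve nearly every step of RNA life, from transcription, splicing and export to ribosome assembly, translation and decay. Most depend on partner proteins that switch the ATPase on or hold it off, and EIF4B, which stimulates the DEAD box factor EIF4A at the 5' ends of mRNAs, is one such partner among the 9 proteins assayed. CPSF5 (gene NUDT21) and CPSF6 form cleavage factor Im, which marks poly(A) sites. RBM10 and RBM22 act in splicing, and RNPS1 belongs to the periphery of the exon junction complex. MBNL2 is a muscleblind splicing and RNA-localization factor, GRB2 is a signalling adaptor, and LGALS3 is a galactoside-binding lectin.

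EIF4B had windows at annotated starts of helicase mRNAs, and the first bases of these transcripts show where. A gene can have several starts in the table. Of 35 helicase genes with an EIF4B window and a start in the RefSeq promoter table, 34 had an EIF4B window that overlapped the first 50 transcribed bases. The same held for 89.4% of 7622 protein-coding genes. The 30 bases after the RefSeq start (assembly GRCh38.p14) are given 5' to 3' for the 4 helicases with the highest enrichment among these windows and for the next 4 after DHX16 by the enrichment of a start-codon window that overlaps the first 50 bases, with the first ATG, if any, in capitals. The coordinates belong to the printed bases.
DDX5, chr17:64506260-64506289, minus strand: acctcattcatttctaccggtctctagtag
DHX16, chr6:30672977-30673006, minus strand: gcggtacgggaagacagctttgggATGtcg
DHX37, chr12:124989102-124989131, minus strand: aacccggaagtctcacggccggagttggtg
DHX36, chr3:154324458-154324487, minus strand: acagtggcttccgggcccggacgccatttc
DDX28, chr16:68023203-68023232, minus strand: gATGtgcgcttctcccgcactaagggaaac
DDX54, chr12:113185449-113185478, minus strand: cttctgcgttcccagcgcgcggcccgaATG
DDX20, chr1:111755901-111755930, plus strand: gcgagatctgacggcgcggctaccATGgcg
DDX47, chr12:12813346-12813375, plus strand: acttccggagacctcacacaagATGgcggc

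In DHX16, DDX20, DDX47 and DDX54 the first ATG fell at bases 25, 25, 23 and 28, where the listed start-codon window began. The ATG at base 2 of DDX28 lay in a stretch that the authors labelled 5' UTR, and the start-codon window of that gene began just after the printed bases. Among the first 50 bases of the 49 helicase starts in the table, 19 held an ATG on the sense strand (38.8%, against 40.2% of 35116 starts). The letters GGCGGC, searched on both strands, were in 7 of the 49 (14.3%, against 12.9%). Both shares were close to those of all starts. A match is a description of these letters, not of a binding site.

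DDX5, a transcription and splicing cofactor, had the strongest of these windows (chr17:64506256-64506323, 5' UTR), with 936 IP and 17 input reads summed over replicates. The start it overlaps lies 577 nt downstream of the outermost start of that gene, and the window reaches 34 nt upstream of it. For the other 7 genes the printed bases begin at the outermost start. Its log2 enrichment over input was 6.43 in the lower of its replicates and 6.95 in the other, and values given in pairs follow this order. This enrichment is the authors' own value, whose baseline is not given in the sources used here. It is not the plain ratio of the summed reads, and it serves to rank windows within a list. The neighbouring window downstream held more reads, 1273 IP and 44 input, at a lower enrichment of 3.79 and 4.31. DHX16, a spliceosomal DEAH box ATPase, reached 5.98 and 6.44 at its start codon with 50 IP reads and no input read. DHX37, a helicase of small-subunit assembly, had 5.18 and 5.25, and DHX36, which unwinds G-quadruplexes, 5.06 and 5.18. The replicates of DDX5 were 0.52 apart and those of DHX37 0.08. DDX28, a mitochondrial helicase, had 4.79 and 6.59 at its start codon, a gap of 1.80.

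All 41 helicase genes had a window for CPSF6 and for RNPS1, against 86.6% and 90.0% of the 10122 protein-coding genes. EIF4B had windows in 39 helicase genes (93.4% of all protein-coding genes), MBNL2 in 35 (66.5%), CPSF5 in 30 (65.4%) and RBM10 in 30 (47.3%). GRB2 had windows in 22 (49.1%), RBM22 in 17 (23.7%) and LGALS3 in 1, DDX3X (3.28%). As shares of the 41 genes these are 95.1% for EIF4B, 85.4% for MBNL2, 73.2% for CPSF5 and for RBM10, 53.7% for GRB2 and 41.5% for RBM22. The helicase share was above the background for the other lists and below it for LGALS3. Since neither RNA level nor gene length was held equal, nothing particular to helicases can be read from this.

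RNPS1 had the most helicase windows, 1307, followed by CPSF6 with 964 and GRB2 with 714. MBNL2 had 329, RBM10 293, EIF4B 218, CPSF5 191 and RBM22 49. Helicase windows took 1.08% of the RBM10 list in protein-coding genes, 0.886% of the RNPS1 list and 0.782% of the MBNL2 list, but 0.254% of the GRB2 list. The median lower-replicate log2 enrichment of helicase windows ran from 2.11 for RBM22 to 3.26 for GRB2, and for every list with over 1 helicase window it lay at most 0.32 from the median of all protein-coding windows. The median gap between the higher and the lower replicate was 0.52 for RBM22 and 0.90 for RBM10, the narrowest and the widest of the 9 lists. The RBM10 windows of helicases stood at 2.46 against 2.79 for all protein-coding genes. The replicate gap describes single windows, not the uncertainty of a median over many, and this difference was not tested.

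Most helicases were listed for many proteins. DDX3X was in all 9 lists (2.44% of helicase genes, against 0.968% of protein-coding genes). In 8 lists were 9 genes (22.0%, against 9.05%): DDX5, DDX10, DDX11, DDX17, DDX21, DDX24, DDX46, DHX9 and DHX30. The median was 6 lists per helicase gene and 5 per protein-coding gene. No member was in fewer than 4 lists, and DDX19A, DDX28 and DDX49 were in 4 (7.32%, against 13.7%). Over all lists the most windows were in DDX10 with 472, DDX11 with 274, DDX17 with 206, DHX9 with 193 and DHX30 with 186. Without its GRB2 windows DDX10 would not be among them, as 381 of the 472 came from that list.

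**Figure D1:**
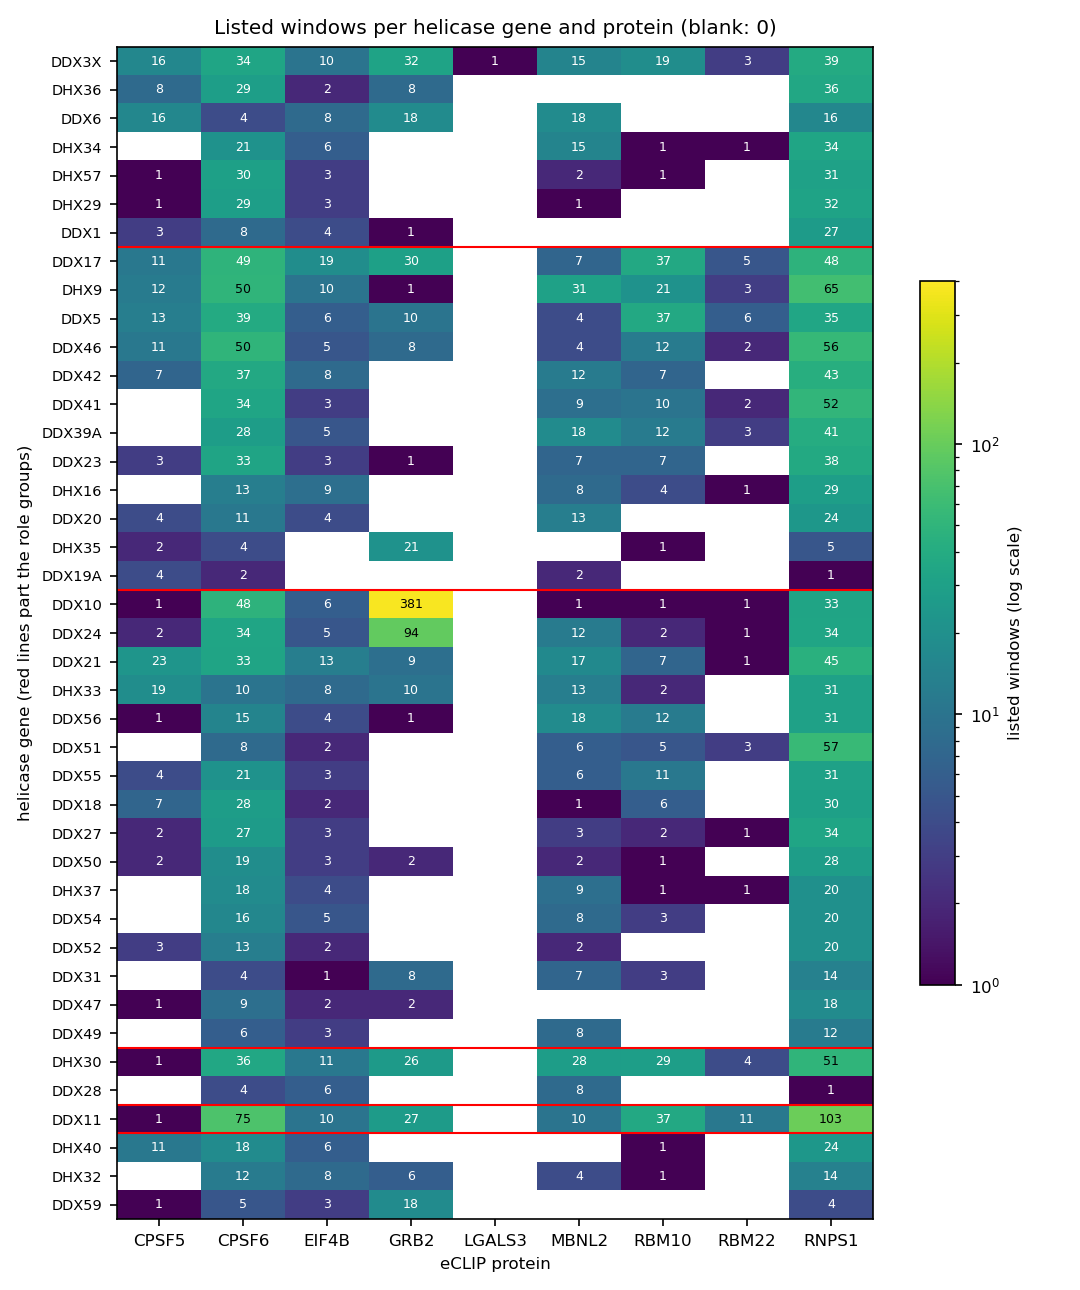
Number of listed windows (colour, log scale, and printed digit) for each of the 41 helicase genes (rows, grouped by role and parted by red lines) and each eCLIP protein (columns); blank cells hold 0. The CPSF6 and RNPS1 columns are filled in every row, the LGALS3 column only at DDX3X, and the brightest cell is the 381 GRB2 windows of DDX10.

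Where on the transcripts the windows lay differed between proteins. Gaps from all protein-coding genes ran from a few percentage points for the leading classes of CPSF5, EIF4B and RNPS1 to larger ones for CPSF6, MBNL2, RBM10 and RBM22. CPSF5 windows were in 3' UTRs: 79.1% of the 191 (95% exact binomial interval 72.6 to 84.6), against 81.0% for all protein-coding genes. These intervals treat windows as independent, which adjoining windows are not. A 3' UTR window was listed for CPSF5 in 30 of the 41 helicase genes (73.2%, against 60.0% of protein-coding genes). Among genes on the CPSF5 list these were 30 of 30, against 91.8%. The GC content of these windows had a median of 34.3% in helicases and 34.3% in all genes.

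EIF4B windows were in 5' UTRs (34.4%, interval 28.1 to 41.1, against 31.9%) and on start codons (18.8%, interval 13.8 to 24.6, against 10.8%). Coding sequence held nearly as many as 5' UTRs (31.7%, interval 25.5 to 38.3, against 31.6%). A 5' UTR window was listed in 38 helicase genes (85.2% of protein-coding genes) and a start-codon window in 36 (66.0%). Helicase 5' UTR windows had a median GC content of 63.5%, and those of all protein-coding genes 70.5%. By median of the lower replicate, 5' UTR windows stood at 3.56 and coding windows at 2.13.

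Coding sequence held 62.5% of RNPS1 windows in helicases (interval 59.8 to 65.1, against 65.5%) and 60.1% of CPSF6 windows (interval 56.9 to 63.2, against 48.8%). Coding windows were listed in 40 helicase genes for RNPS1 (83.8% of protein-coding genes) and in 40 for CPSF6 (75.9% of protein-coding genes). Deep introns, the intron parts over 500 nt from a splice site, held 4.25% of CPSF6 windows in helicases and 22.8% in all protein-coding genes. For MBNL2, coding sequence held 69.0% of helicase windows (interval 63.7 to 74.0, against 51.1%). These lay in 31 helicase genes, and 48.2% of protein-coding genes had such a window. The MBNL2 3' UTR share was 14.3% (interval 10.7 to 18.5, against 20.1%), in 18 helicase genes (28.8% of protein-coding genes).

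GRB2 windows lay in deep introns, in 18 helicase genes (45.8% of protein-coding genes). Deep introns held 87.5% of the helicase windows (interval 84.9 to 89.9, against 93.4%). This share rested on DDX10, and without that gene it was 73.3%. With each gene weighted equally it was 65.5%.

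For RBM10, the 100 nt next to a 3' splice site held 26.6% of helicase windows (interval 21.6 to 32.1, against 32.8%). These lay in 26 helicase genes, and 36.7% of protein-coding genes had such a window. A larger class was noncoding exons of mRNA genes, exons that carry neither a coding nor a UTR label. It held 31.1% of helicase windows (interval 25.8 to 36.7), against 10.4% of all, in 14 helicase genes (9.27% of protein-coding genes). Without DDX5, DDX17 and DDX11 the noncoding-exon share was 22.5%. All 91 of these windows were also labelled intron, which is possible where transcripts of a gene differ, and 60 were also labelled as adjacent to a 3' splice site. When every label of a window was counted, 54.6% of helicase windows and 45.2% of all RBM10 windows were adjacent to a 3' splice site. The order of the 2 shares thus depends on which of several labels is read. It also depends on the genes: without DDX5, DDX17 and DDX11 the leading-label share was 36.3%, above the 32.8% of all. For RBM22, 16.3% of helicase windows were next to a 5' splice site (interval 7.32 to 29.7, against 21.5%). These lay in 7 helicase genes, and 12.3% of protein-coding genes had such a window. Noncoding exons held 26.5% of RBM22 helicase windows (against 7.11%). Coding sequence held 22.4% of them (interval 11.8 to 36.6), against 31.1%, the largest class in all protein-coding genes. With every label counted, 46.9% of RBM22 windows in helicases and 31.6% in all genes were next to a 5' splice site.

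**Figure D2:**
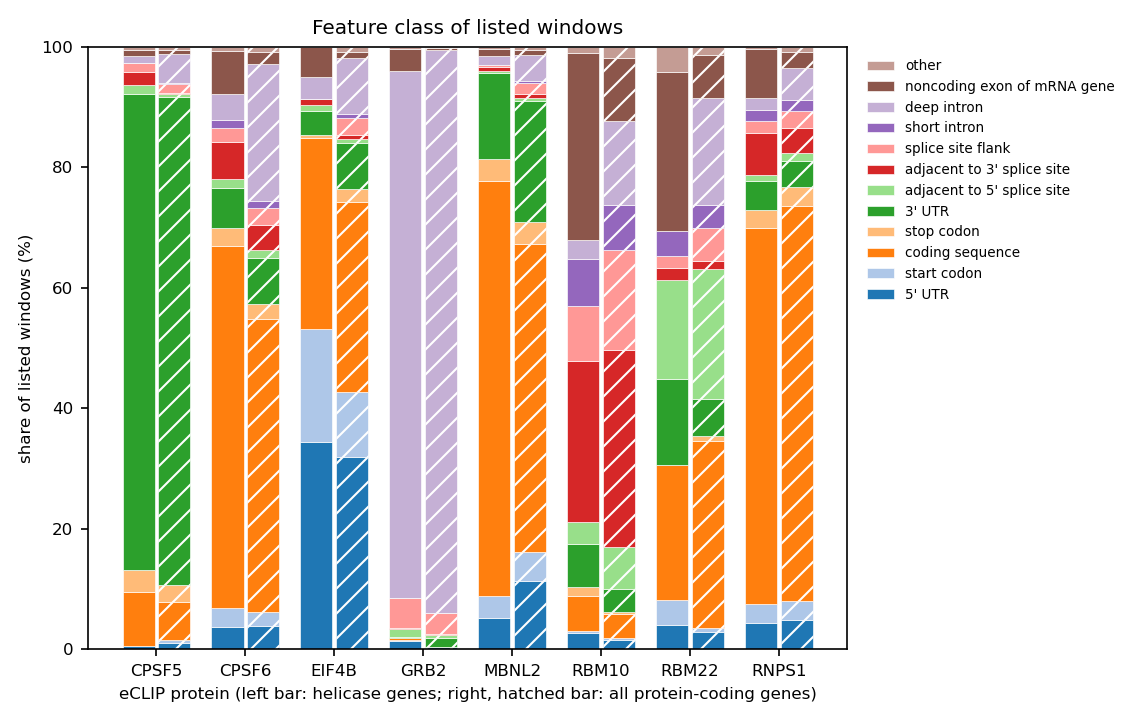
Share of listed windows (%) in each feature class for 8 eCLIP proteins, with helicase genes as the left plain bar and all protein-coding genes as the right hatched bar of each pair; LGALS3, with 1 helicase window, is not drawn. The bars of CPSF5, CPSF6, EIF4B, GRB2, MBNL2 and RNPS1 are led by the same class in both sets, and those of RBM10 and RBM22 are not. The brown noncoding-exon part of RBM10 is 31.1% in helicases and 10.4% in all genes.

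Among the 7 helicases of translation and mRNA turnover, all 7 were listed for CPSF6, EIF4B and RNPS1, and 6 for CPSF5, near or above the shares of all protein-coding genes (86.6%, 93.4%, 90.0% and 65.4%). DDX3X, which helps ribosomes through structured 5' UTRs, had 16 CPSF5, 34 CPSF6, 10 EIF4B, 32 GRB2, 1 LGALS3, 15 MBNL2, 19 RBM10, 3 RBM22 and 39 RNPS1 windows. Its strongest CPSF5 window, in the 3' UTR (chrX:41350188-41350285), held 92 IP and no input reads at 6.75 and 7.14, the highest lower-replicate value among the CPSF5 windows of helicases. The LGALS3 window was a coding one (chrX:41346229-41346319) with 26 IP and 10 input reads at 1.74 and 2.52, and its q-value was 0.188, where the lists admit q-values up to 0.2. Of the 32 GRB2 windows of DDX3X, 23 had noncoding exon as their leading label and 4 deep intron. All 714 GRB2 windows of helicases carried an intron label, among them all 26 in noncoding exons. The placement in DDX3X thus depends on which label is read.

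DDX6, the helicase that represses and stores mRNAs in P-bodies, had 16 CPSF5 windows, all in the 3' UTR. Of its 18 MBNL2 windows, 10 were in the 3' UTR and 7 in coding sequence. EIF4B reached 5.89 and 6.07 in its 5' UTR (chr11:118786430-118786518, 64 IP and 3 input reads). No RBM10 or RBM22 window was listed in DDX6. DHX36 had its strongest window for CPSF5 (chr3:154275877-154275974, 3' UTR, 64 IP and no input reads, 6.42 and 6.59), and 36 RNPS1 and 29 CPSF6 windows, 27 and 19 of them coding. DHX34, a nonsense-mediated decay factor, gave RBM22 its strongest helicase window, next to a 5' splice site (chr19:47380993-47381085), with 27 IP and no input reads at 4.27 and 5.22. DHX29, which assists scanning of structured mRNAs, had 29 CPSF6 windows, of which 27 were coding, and 32 RNPS1 windows. Its EIF4B 5' UTR window stood at 4.17 and 7.08, so that its level is poorly fixed. DDX1 and DHX57 had 27 and 31 RNPS1 windows and at most 1 window each for RBM10 or GRB2.

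The 12 listed helicases of splicing, export and transcription included the RBM10-rich members. DDX5 and DDX17, paralogous cofactors of transcription, splicing and microRNA processing, had 37 RBM10 windows each, the most of any helicase together with DDX11. In DDX5, 22 of the 37 were in noncoding exons, 7 were labelled 3' UTR, 5 were labelled 5' UTR, and none had its leading label next to a splice site. In DDX17, 14 were in noncoding exons, 8 next to a 3' splice site and 6 in splice site flanks. The median lower-replicate enrichment was 2.79 for DDX5 and 1.77 for DDX17. With DDX5, DDX17 and DDX11 left out, the share of RBM10 helicase windows next to a 3' splice site was 36.3% in place of 26.6%, with 32.8% in all genes.

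The noncoding exons of DDX5 were listed for several proteins: 22 windows for RBM10, 20 for CPSF6, 16 for RNPS1 and 4 for RBM22, at 25 distinct positions. All 62 were also labelled intron or as lying by a splice site. In DDX5, 24 windows were shared by RBM10 and CPSF6 (64.9% of the RBM10 and 61.5% of the CPSF6 windows). In DDX17, 12 were shared (32.4% and 24.5%). Over all helicases this pair shared 39.2% of the RBM10 and 11.9% of the CPSF6 windows. In all protein-coding genes the shares were 26.3% and 4.82%. EIF4B had 19 windows in DDX17, the most of any helicase, of which 10 were in noncoding exons. Its strongest there was in the 5' UTR (chr22:38506238-38506337), with 1194 IP and 68 input reads at 3.23 and 3.57. DDX17 also held the strongest RBM22 noncoding-exon window (chr22:38493622-38493709, 199 IP and 12 input reads, 4.11 and 4.94) and an RNPS1 coding window of 6.03 and 6.69 (chr22:38494076-38494131, 494 and 21 reads). GRB2 had 30 windows in DDX17, of which 25 lay in 1 intron.

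**Figure D3:**
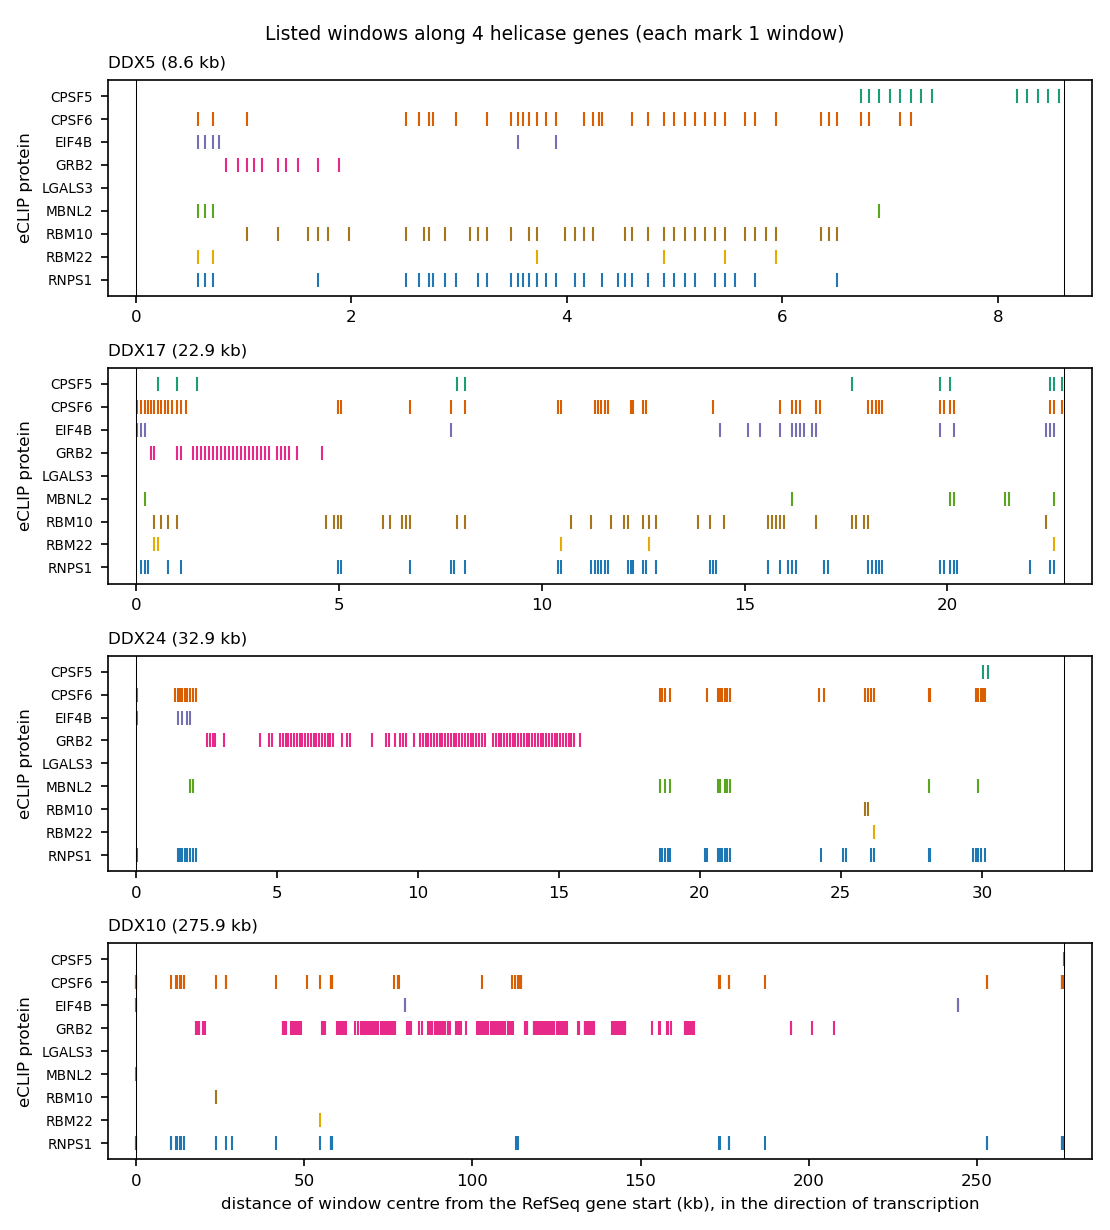
Position of each listed window (marks) along DDX5, DDX17, DDX24 and DDX10, as the distance of its centre from the RefSeq gene start in kb along the direction of transcription, with 1 line per eCLIP protein; black verticals are the gene's ends. In DDX5, CPSF5 marks lie at the 3' end and RBM10, CPSF6 and RNPS1 marks fill the middle, while in DDX24 and DDX10 the GRB2 marks crowd into introns where other proteins have few or none.

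DHX9, a nuclear helicase of transcription and RNA processing, was the helicase with most MBNL2 windows, 31, of which 28 were coding. Its strongest (chr1:182881264-182881344) had 91 IP and 10 input reads at 4.05 and 4.64. RBM10 had 21 windows in DHX9, and 12 of them had a leading label next to a 3' splice site, where DDX5 had 0. The 2 genes were not compared with every label counted. RNPS1 had 65 and CPSF6 50 there, and 43 were shared (66.2% and 86.0%). DDX46, a DEAD box factor of early spliceosome assembly, had 56 RNPS1 and 50 CPSF6 windows, and DDX42, an SF3b-associated helicase, 43 and 37. DDX41 had 52 RNPS1 windows in a gene of 5.38 kb, 19 of them in 1 unbroken stretch of 1319 nt. A 16-nt 5' UTR window at its start was listed for CPSF6 (5.14 and 5.71), RNPS1 (5.50 and 6.58) and EIF4B (4.04 and 5.09). DDX39A, an mRNA export helicase, had 12 RBM10 windows, 9 of them in noncoding exons, 18 MBNL2 windows and a 19-window RNPS1 stretch of 1428 nt. All 28 of its CPSF6 windows were also RNPS1 windows.

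The remaining members of this group had fewer windows. DDX20, a partner of the SMN complex, gave MBNL2 its strongest helicase window with at least 20 IP reads, the minimum for all strongest windows named (chr1:111766703-111766799, coding, 21 IP reads and 1 input read, 4.61 and 5.99). DDX23, a helicase of the U5 snRNP, had 38 RNPS1 and 33 CPSF6 windows. DHX16 had 9 EIF4B windows, of which 6 formed 1 stretch over its first 319 nt. DHX35 had 21 GRB2 windows, all in deep introns, and 5 RNPS1 windows. DDX19A, an export factor, had 9 windows in all, each in its 3' UTR, and 4 of the 9 were for CPSF5. DDX39B and DDX19B, named for this group, had no window under the rule.

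The 16 helicases of ribosome biogenesis and the nucleolus held most of the GRB2 windows, 507 of 714. These were in 8 of the 16 genes, near the 49.1% of all protein-coding genes. Most of the 507 came from 2 genes, DDX10 with 381 and DDX24 with 94. DDX10, a pre-rRNA processing helicase encoded by a gene of 276 kb, had 381, all in deep introns, with 15151 IP and 452 input reads. A single intron held 333 of them across 106 kb. The longest unbroken stretch was 35 windows over 3499 nt. The strongest (chr11:108739960-108740059) had 113 IP and no input reads at 6.49 and 6.78. CPSF6 also had its strongest helicase window in a deep intron of DDX10 (chr11:108778754-108778853, 47 and 0 reads, 5.76 and 6.35), although 27 of its 48 windows there were coding. RBM10 had only 1 window in DDX10, and it was not a GRB2 window. In all protein-coding genes 0.42% of GRB2 windows and 4.39% of RBM10 windows were shared by the pair, so 1 window says little.

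DDX24 had 94 GRB2 windows, 92 of them in 1 intron over 13.1 kb at a median lower-replicate enrichment of 3.85, with 2915 IP and 47 input reads. Its longest stretch was 30 windows over 2981 nt. Per kb of gene, DDX24 had 2.86 GRB2 windows and DDX10 1.38. In both genes RNPS1 and CPSF6 windows were mainly coding: 24 of 34 and 22 of 34 in DDX24.

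DDX21, a nucleolar helicase coupled to rRNA transcription, had the most CPSF5 windows of any helicase, 23, of which 18 were in the 3' UTR, and the strongest (chr10:68983009-68983106) held 702 IP and 12 input reads at 5.72 and 6.35. Adjoining windows formed a 10-window stretch of 982 nt. DHX33 followed with 19, of which 18 were in the 3' UTR, and gave RNPS1 its strongest helicase window (chr17:5462387-5462454, coding, 108 and 0 reads, 6.51 and 7.39). EIF4B reached 5.51 and 5.53 at the DHX33 start codon with 293 IP and 3 input reads. DDX18 gave RBM10 its strongest helicase window, next to a 3' splice site (chr2:117828849-117828948, 80 and 0 reads, 6.12 and 6.37). DDX47 had an RNPS1 window of 6.07 and 6.69 in its 22-nt 5' UTR window (chr12:12813346-12813367), which covers most of the bases printed above. DDX27 had CPSF6 (5.61 and 5.87) and RNPS1 (5.83 and 7.52) coding windows. DDX51 had 57 RNPS1 windows, the most of this group, and 8 for CPSF6. DDX56 had 18 MBNL2 and 12 RBM10 windows, 6 of the latter next to a 3' splice site. DDX49, DDX52, DDX31, DDX50, DDX54, DDX55 and DHX37 ranged from 12 to 31 RNPS1 windows.

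The 2 mitochondrial members differed. DHX30, a helicase of mitochondrial ribosome assembly, had 51 RNPS1, 36 CPSF6, 29 RBM10, 28 MBNL2, 26 GRB2, 11 EIF4B, 4 RBM22 and 1 CPSF5 windows. Its RBM10 window next to a 3' splice site (chr3:47843006-47843105) had 337 IP and 3 input reads at 5.85 and 5.93. Of its 29 RBM10 windows, 10 were next to a 3' splice site. DDX28, an intronless gene of 2.32 kb, had 8 MBNL2, 6 EIF4B, 4 CPSF6 and 1 RNPS1 windows and none for RBM10, RBM22, GRB2 or CPSF5. DDX28 and DDX19A were the only helicases with a single RNPS1 window, and that of DDX28 held 10 IP and no input reads at 3.27 and 3.42. Of its MBNL2 windows, 5 adjoined each other over 415 nt at the 5' end.

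DDX11, a DNA helicase of sister chromatid cohesion, had the most windows of any helicase for RNPS1 (103), CPSF6 (75), RBM10 (37) and RBM22 (11). DDX11 has a pseudogene copy, DDX12P, whose windows in the same lists were 98, 60, 39 and 15. Reads may be split between the copies, and the treatment of such reads is not given in the sources used here, so the DDX11 values are uncertain. RBM10 had its strongest DDX11 window next to a 5' splice site (chr12:31092893-31092992, 118 and 0 reads, 6.05 and 6.43). Without DDX11 the lists held 256 RBM10, 38 RBM22, 889 CPSF6 and 1204 RNPS1 windows in helicases, within 1.5 times of the full counts.

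DHX40, DHX32 and DDX59 were put in no role group. DHX40 had 11 CPSF5 windows, and its last 10 formed a stretch of 978 nt that ended at the RefSeq gene end. The final window (chr17:59608248-59608345) had 599 IP and 6 input reads at 6.29 and 7.71. DDX59 had 18 GRB2 windows, all in 1 intron over 2.38 kb, and an EIF4B 5' UTR window of 5.78 and 5.90. DHX32 had 8 EIF4B and 6 GRB2 windows. Genes of antiviral sensing (DDX58, DDX60, DDX60L, DHX58) and of the germ line (DDX4, DDX25, DDX43, DDX53), named for comparison, had no window under the rule.

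CPSF5 windows reached the annotated ends of helicase genes in most cases. For each of the 30 genes, the distance was taken from the centre of each 3' UTR window to the RefSeq gene end. In 21 of the 30, a window was centred within 200 nt of it, against 51.9% of 5891 protein-coding genes with such windows. By window, 35 of 151 were that close (23.2%, against 15.4%). In 16 genes the nearest was centred within 50 nt, which makes it the last window before the end: DDX27 at 39.5 nt, DDX55 at 44.5 nt and DDX5, DDX6 and DHX40 at 48.5 nt are examples. In DDX21 and DHX36 the strongest window was instead 2010.5 and 3379.5 nt upstream, inside the 3' UTR. In DDX3X the nearest was 14235.5 nt upstream, and the RefSeq gene extends far beyond the window-bearing 3' UTR. CPSF6, its partner subunit, had 5 of 63 3' UTR windows within 200 nt (7.94%, against 6.36% in all protein-coding genes), and MBNL2 3 of 47 (6.38%, against 4.26%).

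**Figure D4:**
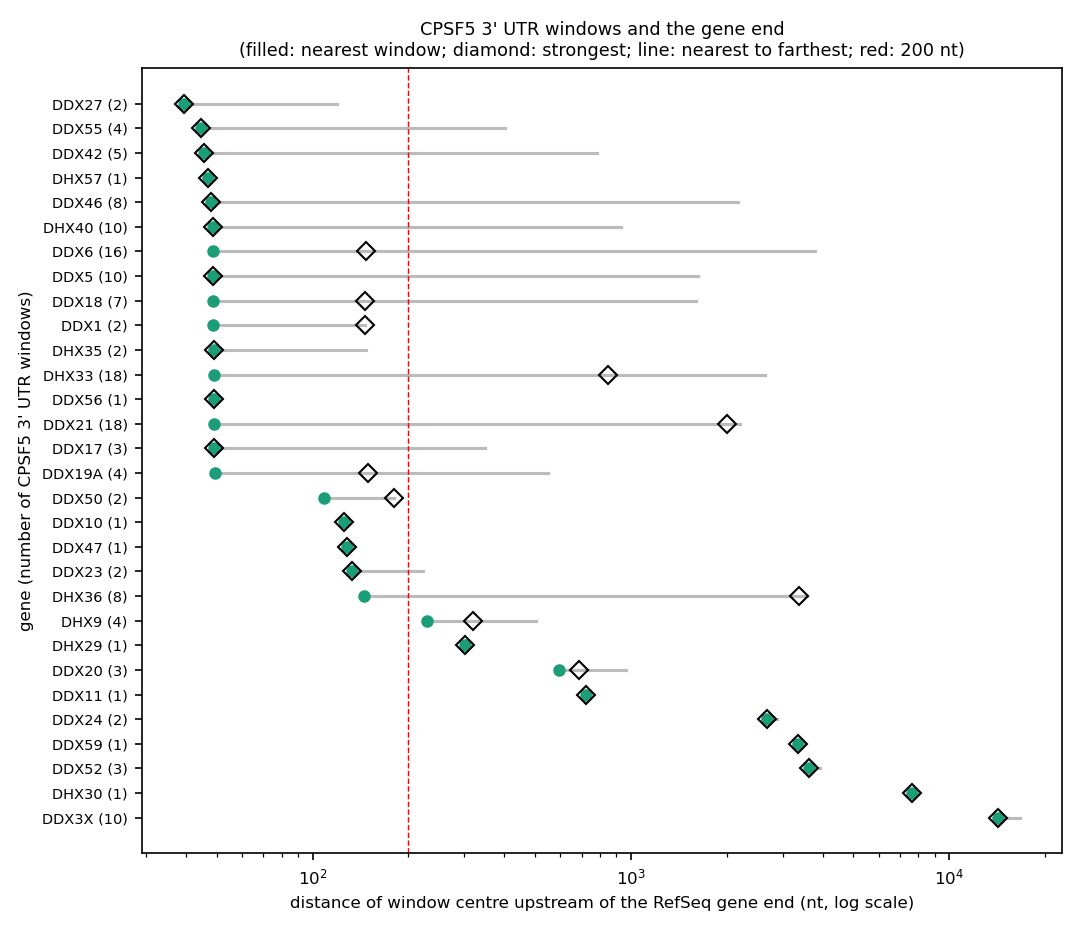
Distance (nt, log scale) from the RefSeq gene end to the nearest (filled point), strongest (diamond) and farthest (end of grey line) CPSF5 3' UTR window of each of 30 helicase genes, with the window number in parentheses and a red dashed line at 200 nt. In 21 genes the filled point lies left of the line, and in DDX3X it lies at 14235.5 nt.

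Helicase windows were often listed for several proteins at identical coordinates. Of 2569 distinct windows, 1054 were in 2 or more lists (41.0%, against 22.3% of the distinct windows of protein-coding genes). In 5 or more lists were 16 windows of 8 genes. Of these, 12 were in 5 lists (0.467% of helicase windows, against 0.263%), 3 in 6 (0.117%, against 0.0418%) and 1 in 7 (0.0389%, against 0.00449%). The largest overlap was between CPSF6 and RNPS1, 769 windows, which is 79.8% of the CPSF6 and 58.8% of the RNPS1 helicase windows. In all protein-coding genes the shares were 57.0% and 57.1%. Of MBNL2 helicase windows, 71.7% were also RNPS1 windows (18.1% of the RNPS1 windows), against 49.3% (14.1%) in all protein-coding genes. Of RBM10 windows 48.1% were (10.8%), against 28.2% (5.19%). CPSF5 and CPSF6 shared 43 windows, 22.5% of CPSF5 and 4.46% of CPSF6, against 13.7% and 3.51% in all protein-coding genes. GRB2 shared none with MBNL2, where all genes had 0.33% of the GRB2 and 2.19% of the MBNL2 windows. It shared 10 with RBM10, 1.40% of the GRB2 and 3.41% of the RBM10 windows, against 0.42% and 4.39%.

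A 3' UTR window of DDX11 (chr12:31104029-31104124) was in 7 lists, with the caution on its pseudogene copy. There the RBM10 value was highest, 2.93 and 5.68 with 77 IP and 3 input reads, and the RNPS1 value lowest, 1.16 and 2.60 with 25 and 6. Windows in DDX17 (chr22:38483637-38483736, 3' UTR), DDX3X (chrX:41346229-41346319, coding) and DHX9 (chr1:182843364-182843434, coding) were in 6 lists. The DDX17 window was highest for MBNL2 (3.12 and 3.34) and lowest for RBM22 (0.96 and 1.31). In DDX3X and DHX9 it was RNPS1 that stood highest, at 4.17 and 5.49 and at 4.16 and 5.37. The DDX5 5' UTR window with the strongest EIF4B value was also listed for CPSF6, MBNL2, RBM22 and RNPS1. Values of different lists share no scale, so this order is within the authors' own values and was not tested.

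**Figure D5:**
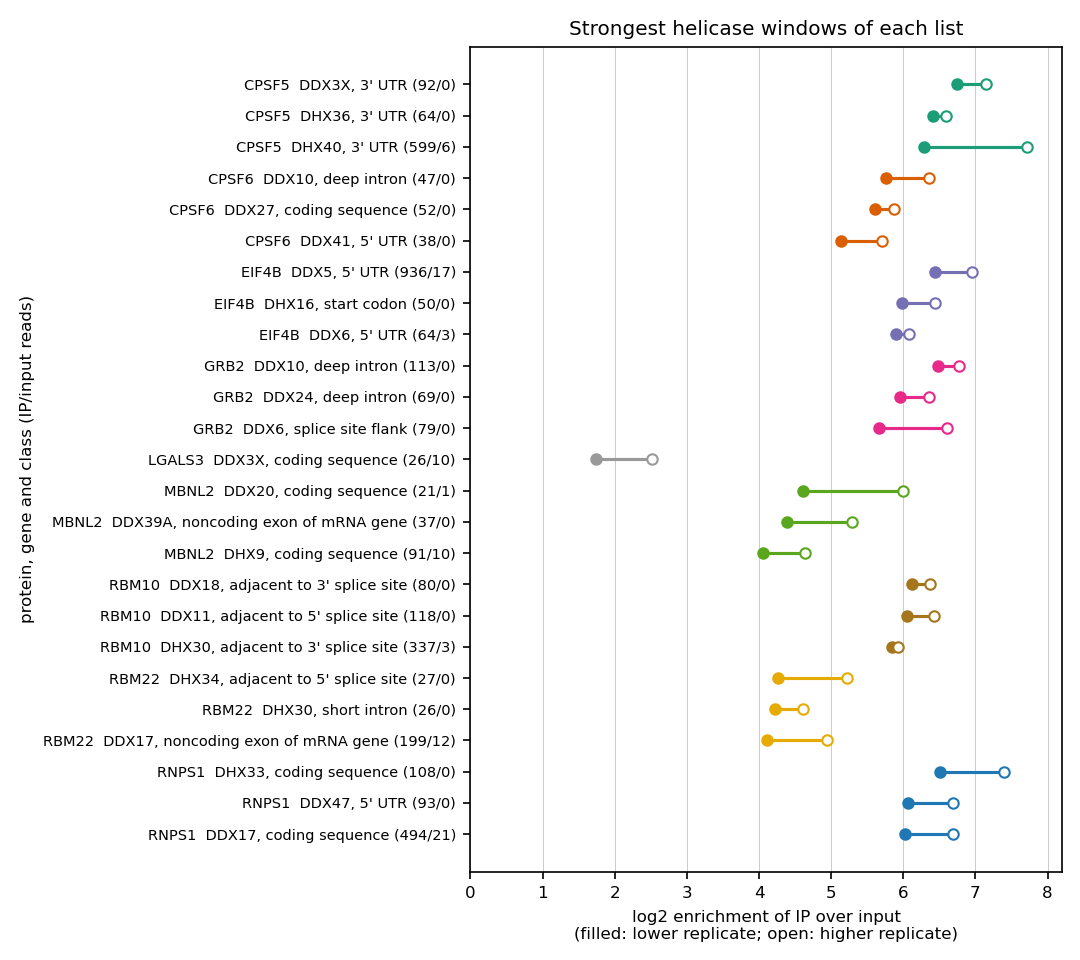
Log2 enrichment of IP over input in the lower (filled) and higher (open) replicate for the 3 strongest helicase windows of each list, 1 per gene, with at least 20 IP reads; IP and input reads stand in the labels. Values rank windows within a list only. The CPSF5 window of DDX3X lies at 6.75 and 7.14, and that of DHX40 spans 6.29 to 7.71.

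Other helicases outside the rule were taken as a list of 11 genes. Among them were the initiation factor EIF4A2, the exon junction helicase EIF4A3, the U5 helicase SNRNP200 and the decay factor UPF1. Of the 11, 10 were listed for RNPS1 and CPSF6, 9 for EIF4B, MBNL2 and RBM10, 8 for CPSF5, 6 for RBM22, 4 for GRB2 and 2 for LGALS3. The shares of all protein-coding genes were 90.0% for RNPS1, 86.6% for CPSF6, 93.4% for EIF4B, 66.5% for MBNL2, 47.3% for RBM10, 65.4% for CPSF5, 23.7% for RBM22, 49.1% for GRB2 and 3.28% for LGALS3. ASCC3 led the CPSF6 and GRB2 counts with 200 and 170 windows, and SNRNP200 the RNPS1 count with 104. Among 24 partner proteins that control such helicases, all 24 were listed for RNPS1, 23 for CPSF6 and EIF4B, 18 for CPSF5 and MBNL2, 16 for GRB2 and RBM10, 11 for RBM22 and 4 for LGALS3, to be read against the same shares. The scaffold gene EIF4G3 had 498 GRB2 windows, EIF4G1 38 EIF4B windows and CNOT1 94 RNPS1 windows.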

How the data were processed

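The submitters' processing notes name the build hg38. Which aligner, window caller and annotation version were used, and how reads that match several places were treated, is not given in the sources used here. Deposited by the authors was 1 table per protein with whole-number read counts for IP and input, summed over replicates, and, per the file headers, the lower and higher log2 odds ratio of enrichment over replicates. The p-values and q-values deposited by the authors are the extremes over replicates, and the authors' tables give GC as a fraction, shown above in percent.

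Both replicates (2 of 2) called each listed window. Values of single libraries were not analysed here, so no test was run, and helicases are described beside all protein-coding genes of the same list. The 18 deposited feature types were joined into 12 classes by the authors' top label. Starts were converted to 1-based, and per-sample columns left out numbered 0. All 41 symbols matched the RefSeq table (GRCh38.p14), which also gave gene ends. Shares carry 95% exact Clopper-Pearson intervals, which cover counting error only. The tools were pandas 2.3.3, scipy 1.17.1 and numpy 2.4.6 under Python 3.11.15, with matplotlib 3.10.9 for plots. Stretches were tested on a simulated table and the member rule on made-up symbols, while class shares were not tested so.

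Members, role groups and lists were chosen with earlier results of these data known. Named for each protein were the 3 helicases with most windows and the 3 strongest windows with at least 20 IP reads, 1 per gene. Also named were the genes and windows in most lists, the 5 genes with most windows, and the leading genes of each role group. Other genes named in the role groups, such as DDX28, DDX41 and DDX49, were chosen after their values were seen.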

Additional observations from a re-analysis of the deposited data

How the results depend on the processing

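No paired analysis was possible because the deposited values are summed or ranked over replicates and the columns carry no replicate number. For the same reason no replicate could be left out. With DHX8, DHX15 and DHX38 added, all 27 counts and shares tried stayed within the limits set for them, and with at least 20 IP reads 33 of 36 did.

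A q-value limit of 0.05 left 119 CPSF5, 532 CPSF6, 341 GRB2, 189 MBNL2, 100 RBM10, 18 RBM22 and 0 LGALS3 windows, with 19 RBM10, 8 RBM22 and 0 LGALS3 genes. Under it the shares became 89.1% in 3' UTRs for CPSF5, 70.7% and 70.4% coding for CPSF6 and RNPS1, 43.4% in 5' UTRs for EIF4B, and 36% next to 3' splice sites for RBM10. The medians became 3.20 (CPSF5), 3.95 (GRB2) and 2.52 (RBM22). No LGALS3 share or median could be given there.

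At least 20 IP reads left 177 MBNL2 windows and gave 63.8% and 69.2% coding for CPSF6 and RNPS1. Joined into stretches, the windows numbered 92 (CPSF5), 560 (CPSF6), 124 (EIF4B), 253 (GRB2) and 671 (RNPS1). With genes weighted equally, the shares were 87.2% (CPSF5, 3' UTR), 63.5% (CPSF6, coding), 65.5% (GRB2, deep intron), 47.5% (RBM10, 3' splice site) and 66.1% (RNPS1, coding). Without DDX10 the GRB2 share was 73.3%.

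The higher replicate gave medians of 3.53 (CPSF5), 3.25 (CPSF6), 3.62 (EIF4B), 4.33 (GRB2), 2.52 (LGALS3), 3.29 (MBNL2), 3.90 (RBM10), 2.62 (RBM22) and 4.16 (RNPS1). Chosen after seeing the data, every label counted gave 54.6% for RBM10 and 46.9% for RBM22, and RBM10 without DDX5, DDX17 and DDX11 gave 36.3% next to 3' splice sites and 22.5% in noncoding exons. Leaving out DDX11 kept all 4 window counts tried within 1.5 times. By definition the higher-replicate medians cannot lie below those of the lower replicate. The cause of the other shifts was not tested. Depth is unknown, and windows of few input reads fix their enrichment poorly: 249 GRB2 windows (34.9%) and 147 RNPS1 windows (11.2%) had no input read.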
